A study of Mus musculus with 7 samples.

Results

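Wnt feedback and target genes are genes that canonical Wnt signalling switches on, several of which then act back on the signal. The group described here holds 10 of them, chosen by name: Axin2, Rnf43, Znrf3, Nkd1, Notum, Sp5, Wif1, Apcdd1, Tnfrsf19 and Tcf7. All 10 were found by symbol among the 52550 genes of the count files, and all 10 passed the low-count filter that left 17449 genes for testing. RNA came from Paneth cells of the small intestine, in 3 libraries from mice kept on water and 4 from mice given dextran sulfate sodium (DSS), a polymer that injures the gut epithelium, at 3% in the drinking water for 7 days and killed 3 days after its withdrawal. The mice of both groups were C57BL/6J with the genotype Lgr5-EGFP-IRES-CreERT2, a knock-in allele that puts a fluorescent protein and an inducible Cre recombinase under the control of the stem cell gene Lgr5, and the controls carried it too. The labels give ages of 12, 12 and 10 weeks for water 1 to 3, and of 12, 10, 10 and 10 weeks for DSS 1 to 4. The cells were sorted live by CD24 and side scatter, without cells bearing TER119, CD31 or CD45. The study's title asks about stem-like features in Paneth cells after inflammation, and the comparison of DSS with water bears on that question.

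When a Wnt ligand binds a Frizzled receptor and its co-receptor, beta-catenin escapes destruction, enters the nucleus and joins TCF/LEF factors at target genes. At the crypt base this signal maintains stem cells and also drives Paneth cell maturation, and Paneth cells themselves secrete Wnt3. Many targets restrain the signal: some rebuild the destruction complex, some remove receptors from the surface, and some disable the ligand outside the cell.

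Total counts ran from 23175708 to 32451653 per library, and counts of the 10 genes ran from 33 (Notum in water 1) to 7070 (Axin2 in DSS 2), all above a floor of 3 counts. The Paneth label fitted the granule markers: the 25 of 34 listed granule genes that were matched summed to between 339000 and 364500 CPM (counts scaled to library size with TMM factors) in water and between 173000 and 290400 in DSS. The sum was thus lower in every DSS library than in any water library. Of the 25, 12 were lower and 1 higher at an unadjusted edgeR p under 0.05, against 7.35% and 8.36% of all tested genes. Scaling without the granule genes is among the alternatives given further below. The part of this difference in the Wnt gene levels was otherwise not tested. The labels do not say outright that each library is a different mouse, so p-values reflect only how these libraries vary. Group means are given ± SD, with n = 3 water and n = 4 DSS libraries. RNA isolation days each held libraries of 1 group, so day and group cannot be told apart. Lanes are not in the labels and were read from the names of the deposited data. These gave lane 6 for water 1 to 3 and DSS 4, lane 8 for DSS 1 and DSS 3, and no lane for the merged DSS 2. Lane and group can thus hardly be told apart. In sorted bulk RNA, fewer cells of a type and less RNA per cell cannot be told apart either.

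The upstream sequences of the 3 genes whose groups did not overlap are shown here to mark where the TCF/LEF core occurs. Of the 3, Sp5 alone held it, and Axin2 and Wif1, whose changes had opposite signs, held none. RefSeq windows on GRCm38.p6, the assembly of the mm10 build, were matched for 7 of the 10 genes, in 10 windows. The search covered the 250 bases before each start site, on both strands, for CTTTGA, the core shared by TCF/LEF sites, and for GGGCGG, the GC box bound by Sp and KLF factors. Capitals mark either match, or its reverse complement. The stretches lie on the plus strand at chr11:108920099-108920348 for Axin2, chr2:70474673-70474922 for Sp5 and chr10:121033754-121033959 for Wif1. The Wif1 stretch is 206 bases, ending before the start site of the count files' gene model.
Axin2: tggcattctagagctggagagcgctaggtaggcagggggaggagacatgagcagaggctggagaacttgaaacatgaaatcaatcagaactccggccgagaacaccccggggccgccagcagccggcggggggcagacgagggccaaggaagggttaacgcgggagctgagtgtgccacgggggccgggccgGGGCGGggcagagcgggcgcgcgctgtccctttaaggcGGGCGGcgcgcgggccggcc
Sp5: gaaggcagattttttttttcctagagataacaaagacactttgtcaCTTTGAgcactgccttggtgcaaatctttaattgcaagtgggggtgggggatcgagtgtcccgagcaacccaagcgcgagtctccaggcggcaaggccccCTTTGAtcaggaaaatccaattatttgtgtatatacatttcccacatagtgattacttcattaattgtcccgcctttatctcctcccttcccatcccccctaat
Wif1: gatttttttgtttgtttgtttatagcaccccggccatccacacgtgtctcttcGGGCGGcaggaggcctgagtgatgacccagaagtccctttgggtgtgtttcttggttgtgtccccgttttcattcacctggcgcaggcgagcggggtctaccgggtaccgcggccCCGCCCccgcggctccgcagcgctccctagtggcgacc

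Sp5 held the CTTTGA core at 2 places, 204 and 104 bases before its start site, and the one nearer the start site continued as CTTTGAT. Axin2 held no CTTTGA in this window and GGGCGG at 2 places, 58 and 20 bases before its start site. Wif1 likewise held no CTTTGA and 2 GC boxes. Among the other matched windows, only the inner of the 2 Tnfrsf19 windows held a CTTTGA, also within CTTTGAT, while the windows of Rnf43, Nkd1 and Tcf7 held none. Over all 32851 RefSeq windows of 250 bases, 13.8% held CTTTGA, 3.21% held CTTTGAT and 32.7% held GGGCGG. These are letter matches in a short window and were not tied to binding.

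Ranked by level per exon length (RPKM, from TMM-scaled counts), the 10 genes spanned a wide range in water. Axin2 was highest at 30.2 ± 3.25 RPKM, followed by Rnf43 at 17.7 ± 0.953 and Nkd1 at 7.39 ± 1.31. Axin2 lay above 91.6% of all tested genes and Rnf43 above 84.9%. These 3 genes did not overlap with their neighbours in the order. Tcf7 (5.17 ± 0.400), Tnfrsf19 (4.90 ± 0.487), Znrf3 (4.41 ± 0.429) and Sp5 (4.17 ± 0.267) formed a run in which the ranges of each neighbouring pair overlapped. The order of neighbours in it was thus not resolved, though Tcf7 lay clear above Znrf3 and Sp5, and Tnfrsf19 clear above Sp5. Wif1 followed at 2.75 ± 0.671 RPKM, clear of both neighbours. Apcdd1 at 1.20 ± 0.190 and Notum at 0.974 ± 0.317 closed the order and overlapped. In DSS the order differed between neighbours of the run from Tcf7 to Sp5: Tnfrsf19 stood before Tcf7, and Sp5 before Znrf3.

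**Figure D1:**
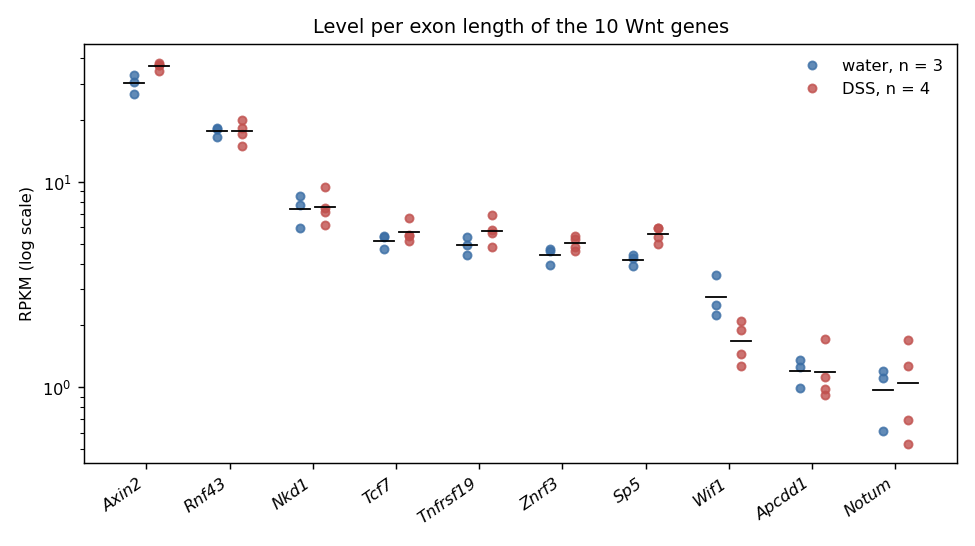
Level per exon length (RPKM, log scale) of the 10 genes, ordered by their mean in water; points are libraries (3 water, 4 DSS) and short lines are group means. Axin2 and Rnf43 stand above the rest in both groups, and Wif1 is the gene whose DSS points lie wholly below its water points.

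Over all 17449 genes, the edgeR quasi-likelihood test called 0% as higher and 0% as lower in DSS at a Benjamini-Hochberg adjusted p under 0.05, so 0 of the 10 genes passed in either direction. The lowest adjusted p of any gene was 0.123. At an unadjusted p under 0.05, 2 of the 10 (Axin2 and Sp5) were higher in DSS and 1 (Wif1) was lower, against 8.36% and 7.35% of all tested genes. The same 2 genes had all 4 DSS libraries above all 3 water libraries, against 7.4% of tested genes, and Wif1 had all 4 below, against 7.51%. Estimates were above 0 for 7 of the 10 genes, and their median log2 change was 0.12, beside -0.0015 over all tested genes. DESeq2, an alternative test that gave an adjusted p for 12561 genes, called these same 3 genes, among 351 called higher (2.79%) and 295 called lower (2.35%).

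Axin2 and Nkd1 act inside the cell. Axin2 encodes a scaffold of the destruction complex and is a widely used readout of Wnt activity. It measured 182, 169 and 147 CPM in water 1 to 3 and 203, 208, 190 and 205 CPM in DSS 1 to 4. Every DSS library lay above every water library, and the DSS libraries spread less, with a coefficient of variation of 3.98% against 10.8%. Its estimated log2 change was 0.28 ± 0.08 (SE; 95% interval 0.09 to 0.47), or 1.21-fold, with an edgeR adjusted p of 0.187. The estimate was 0.45 in 10-week mice only, where the lone water library is the lowest of the 3. In libraries from lane 6 only, where DSS 4 is the lone DSS library, it was 0.29. Under DESeq2 its adjusted p was 0.0387.

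Nkd1 encodes a protein that binds Dishevelled and dampens the signal upstream of the destruction complex. Its levels ran from 27.1 to 38.8 CPM in water and from 28.2 to 43.0 CPM in DSS. The groups overlapped throughout, and the log2 change was 0.03 ± 0.16 (95% interval -0.32 to 0.38; edgeR adjusted p = 0.949).

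Rnf43 and Znrf3 encode related membrane ubiquitin ligases that remove Frizzled receptors from the surface, and R-spondins restrain them through Lgr receptors. Rnf43 measured 119, 120 and 109 CPM in water 1 to 3 and 130, 112, 98.0 and 120 CPM in DSS 1 to 4. The highest and the lowest library were both DSS libraries. Its log2 change was -0.0084 ± 0.10, with a 95% interval from -0.22 to 0.21, so a change of the size of Axin2's 0.28 lay outside the interval. Znrf3 measured 37.0, 30.9 and 36.4 CPM in water and 41.3, 38.0, 36.3 and 42.8 CPM in DSS. Of the 4 DSS libraries, 3 lay above all water libraries and DSS 3 lay between them. For Znrf3 the log2 change was 0.19 ± 0.09 (95% interval -0.01 to 0.38; edgeR adjusted p = 0.345). It was 0.11 without water 2, the lowest library, and 0.10 in 10-week mice only.

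Notum, Wif1 and Apcdd1 act at the cell surface or outside the cell. Notum encodes a secreted enzyme that strips the lipid from Wnt ligands. It measured 1.47, 2.88 and 2.68 CPM in water and 3.04, 4.06, 1.27 and 1.67 CPM in DSS. DSS 1 and DSS 2 lay above the water libraries, DSS 3 lay below them and DSS 4 lay between them, and the coefficient of variation in DSS was 51.1%. Its lowest count of 33 gave an exact Poisson 95% interval from 1.01 to 2.07 CPM, which covers counting error only. The log2 change of 0.10 ± 0.41 had a 95% interval from -0.82 to 1.02, so this depth and spread could not show a change of up to about that size. Of Notum's 2408 exon bases, 708 are shared with the antisense gene Notumos and 210 with Myadml2os, whose own counts were at most 20 and 6 per library, and the counting did not use strand. How reads in shared bases were assigned was not examined, so the part of this overlap in Notum's level was not tested.

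Wif1 encodes a secreted protein that binds Wnt ligands. It measured 6.07, 5.43 and 8.51 CPM in water 1 to 3 and 5.11, 3.09, 3.50 and 4.61 CPM in DSS 1 to 4. Every DSS library lay below every water library, though DSS 1 and water 2 differed by little. For Wif1 the log2 change was -0.72 ± 0.22 (95% interval -1.20 to -0.23), 0.608 times the water level, with an edgeR adjusted p of 0.190 and a DESeq2 adjusted p of 0.0454. Water 3 was the highest library: without it the estimate was -0.50 with an unadjusted p of 0.0536, and in 10-week mice only, where it is the lone water library, the estimate was -1.19.

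Apcdd1 encodes a membrane protein that inhibits Wnt signalling at the cell surface. It ran from 2.77 to 3.80 CPM in water and from 2.58 to 4.80 CPM in DSS, with DSS 1 highest of the 7 libraries. The log2 change was -0.03 ± 0.24 (95% interval -0.56 to 0.51; edgeR adjusted p = 0.971).

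Sp5 and Tcf7 encode transcription factors of the pathway. Sp5 is a zinc finger factor of the Sp family that Wnt induces directly in many tissues, and its upstream window above held 2 TCF/LEF cores. It measured 9.24, 8.89 and 8.14 CPM in water and 12.5, 10.4, 12.6 and 11.3 CPM in DSS. Every DSS library lay above every water library, and the groups were separated by more than the range within water. The log2 change was 0.42 ± 0.11 (95% interval 0.18 to 0.66), or 1.34-fold, with an edgeR adjusted p of 0.154 and a DESeq2 adjusted p of 0.0398. Estimates were 0.49 in 10-week mice only and 0.36 in lane 6 only.

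Tcf7, which encodes TCF1, is both a partner of beta-catenin and a target of it. It measured 14.1, 14.3 and 12.4 CPM in water and 14.3, 17.4, 13.5 and 14.4 CPM in DSS. DSS 2 was the highest library, and the other DSS libraries were close to water 1 and water 2. The log2 change was 0.14 ± 0.11 (edgeR adjusted p = 0.596), and 0.05 without DSS 2. It was 0.075 without water 3, 0.080 in lane 6 only and 0.29 in 10-week mice only. Tcf7 is also a gene of T lymphocytes. Of the 7 T lymphocyte markers, Cd3g was at 0 in all 7 libraries, and Cd3d, Cd3e and Cd8a were at or under 0.0687, 0.0481 and 0.0441 CPM. Ptprc, which encodes the excluded CD45, was between 7.86 and 16.8 CPM, and the sum of the 7 ran from 8.60 to 14.0 CPM in water and from 8.35 to 17.4 CPM in DSS. The part of Ptprc-bearing cells in the Tcf7 level was not tested.

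Tnfrsf19, also called Troy, encodes a receptor of the TNF receptor superfamily that marks crypt base stem cells. It ran from 20.9 to 25.5 CPM in water and from 22.8 to 32.6 CPM in DSS. DSS 1, DSS 3 and DSS 4 lay above all water libraries and DSS 2 did not. The log2 change was 0.24 ± 0.12 (95% interval -0.04 to 0.51; edgeR adjusted p = 0.381), and 0.48 in lane 6 only, where DSS 4 is the lone DSS library. Without DSS 4 it was 0.14.

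**Figure D2:**
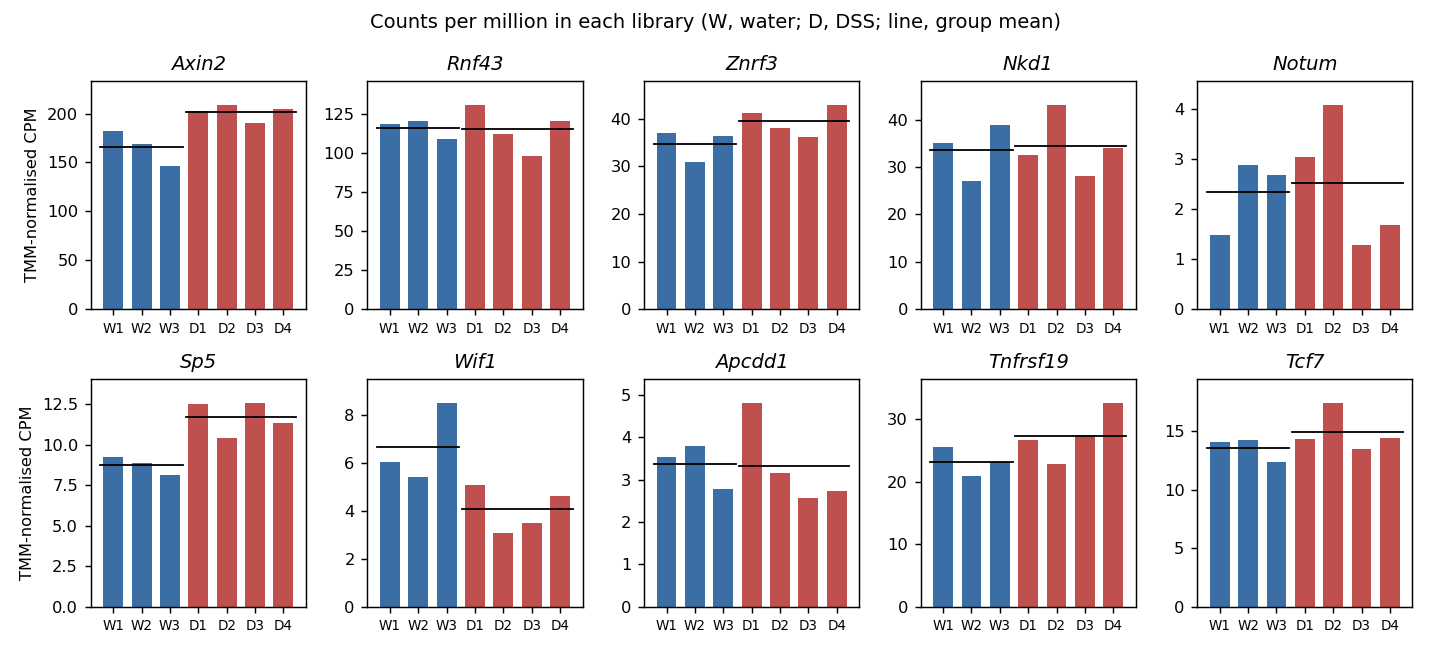
TMM-normalised CPM of each gene in water 1 to 3 (W1 to W3, blue) and DSS 1 to 4 (D1 to D4, red), with the group mean as a black line and each axis starting at 0. Axin2 and Sp5 have 4 DSS bars above the water bars, Wif1 has 4 below, and the remaining 7 genes overlap.

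The 10 genes did not peak in one library. DSS 2 was the highest of the 7 libraries for 4 genes (Axin2, Nkd1, Notum and Tcf7) and the lowest for Wif1. DSS 3 was highest for Sp5 and lowest for Rnf43, Notum and Apcdd1, and DSS 1 was highest for Rnf43 and Apcdd1. Water 2 and water 3 held the lowest value of 3 genes each, and the only gene with its highest value in water was Wif1, in water 3. Tuft cell markers, of another epithelial type, summed to 846 and 850 CPM in DSS 2 and DSS 3, against 431 to 500 CPM in the other 5 libraries, and their part in the pattern was not tested. DSS 2 is named as merged from several runs.

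**Figure D3:**
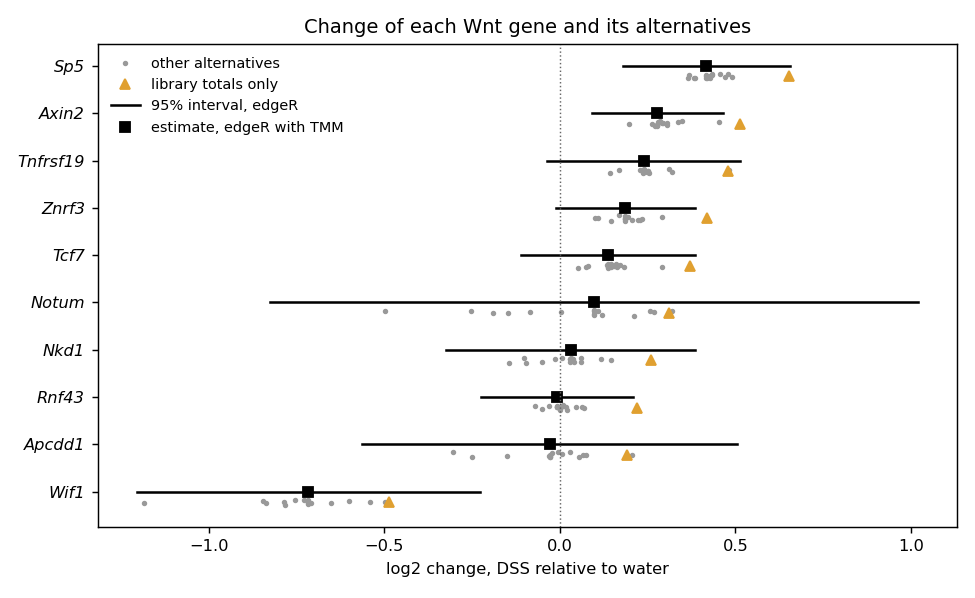
Log2 change of each gene in DSS relative to water: squares are edgeR estimates with TMM scaling, lines their 95% intervals, grey points 16 alternatives and triangles scaling by library totals only. The intervals of Sp5, Axin2 and Wif1 exclude 0 before adjustment over all genes, and each triangle lies to the right of its gene's square.

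Markers of other cells that the sort could hold are given beside these values. The 8 crypt base stem cell markers summed to between 4362 and 5232 CPM in water and between 4172 and 5164 CPM in DSS. At an unadjusted edgeR p under 0.05, 1 of the 8 was higher and 1 lower, against 8.36% and 7.35% of all tested genes. The higher was Ascl2, at 19.7 ± 2.78 CPM in water and 25.4 ± 2.26 in DSS. The lower was Lgr5, at 127 ± 35.8 and 78.5 ± 27.7, with overlap. Log2 changes of Olfm4, Smoc2, Slc12a2 and Cdca7 ran from -0.06 to 0.09. Rgmb was at -0.19 ± 0.14 and Gkn3 at -0.62 ± 0.37 (SE), both with overlap. The 8 markers of cycling cells summed to 748 to 952 CPM in water and 625 to 819 CPM in DSS. Goblet cell markers (7 genes) summed to 9877 to 11030 and 7808 to 12970 CPM, enterocyte markers (7 genes) to 443 to 536 and 396 to 519 CPM, and enteroendocrine markers (8 genes) to 68.1 to 2767 and 540 to 1298 CPM. Of the mesenchymal markers, the collagen genes Col1a1, Col1a2 and Col3a1 were at 0 in all water libraries and at most 0.0884 CPM in DSS. The 7 mesenchymal markers summed to 0.446 to 15.9 and 3.59 to 6.56 CPM, nearly all from Vim. The 4 endothelial markers summed to 2.94 to 3.80 and 2.71 to 3.92 CPM, and 6 myeloid markers without Lyz2, which Paneth cells express, to 1.38 to 2.35 and 2.69 to 3.16 CPM. The part of stem, cycling, goblet, enteroendocrine, enterocyte, mesenchymal, endothelial and myeloid cells in the Wnt gene levels was not tested.

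The rest of the pathway was read from 6 further lists, and 0 genes on any of them passed in edgeR over all genes. Their counts at an unadjusted p under 0.05 stand beside 8.36% of all tested genes higher and 7.35% lower, and list medians beside -0.0015. Of 21 Wnt ligand and secretion genes 9 were tested, 0 higher and 2 lower at an unadjusted p under 0.05, with a median log2 change of -0.23. Wls, which carries Wnt proteins to the surface, was 75.3 ± 2.34 CPM in water and 65.8 ± 8.27 in DSS. Every DSS library lay below water, as for 7.51% of all tested genes. DSS 1 at 73.1 and water 2 at 73.4 CPM differed by little, and the unadjusted edgeR p was 0.0738. Porcn, which attaches their lipid, was at -0.29 ± 0.13, Wnt10a at -1.24 ± 0.52 and Wnt9a at -0.40 ± 0.26 (log2 change ± SE), all with overlap. Wnt10a was low, at 1.31 ± 0.520 CPM in water and 0.548 ± 0.402 in DSS. Wnt3 was 117 ± 11.8 CPM in water and 100 ± 22.1 in DSS, also with overlap, and its log2 change was -0.22 ± 0.16. The estimates of 7 of these 9 genes were below 0.

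Of 22 receptor and R-spondin genes 16 were tested, and 1 was higher and 2 lower at an unadjusted p under 0.05, with a median of -0.04. Fzd5, a Frizzled receptor, was 74.1 ± 6.50 CPM in water and 91.6 ± 5.48 in DSS, with no overlap. Fzd4, another Frizzled receptor, was 8.62 ± 0.783 and 6.00 ± 0.873 CPM, with no overlap in the other direction, and Fzd3 was at -0.41 ± 0.30. Lgr5, an R-spondin receptor whose locus carries the knock-in, was at -0.70 ± 0.26. None of the 4 R-spondins passed the filter.

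Of 17 genes of Dishevelled and the destruction complex 16 were tested, and their median was 0.0071. Dvl3, a Dishevelled protein, was the 1 gene at an unadjusted p under 0.05, at 0.16 ± 0.07. Every DSS library lay above water for Dvl3, as for 7.4% of all tested genes. Csnk1e, a kinase acting on Dishevelled, was at 0.14 ± 0.08, with overlap. Ctnnb1, which encodes beta-catenin itself, was 554 ± 6.99 CPM in water and 512 ± 18.2 in DSS. Its log2 change was -0.12 ± 0.07, with every DSS library below water. Tnks2, a tankyrase that marks Axin for destruction, was at -0.09 ± 0.06, also with no overlap.

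Of 17 listed TCF/LEF factors and nuclear partners 16 were matched and 15 tested, 3 higher and 2 lower at an unadjusted p under 0.05, with a median of 0.06. Bcl9l and Bcl9, related co-activators that link beta-catenin to Pygopus, lay on opposite sides: Bcl9l was at 0.30 ± 0.08 with every DSS library above water, and Bcl9 at -0.17 ± 0.06 with every DSS library below. Lef1 was low, at 0.378 ± 0.116 CPM in water and 0.715 ± 0.175 in DSS, with no overlap and a log2 change of 0.93 ± 0.34. Tle2, a co-repressor, was at -0.48 ± 0.18.

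Of 17 other Wnt inhibitors 7 were tested and 0 reached an unadjusted p under 0.05, with a median of -0.33. Tpbg, a membrane inhibitor, was 17.7 ± 15.2 CPM in water and 7.77 ± 2.07 in DSS. Kremen1, a receptor for Dkk proteins, was at 0.19 ± 0.09 with every DSS library above water. Dkk3 was at -0.33 ± 0.23 and Draxin at -0.56 ± 0.42. Of 23 further Wnt targets of crypts 20 were tested, 7 higher and 2 lower at an unadjusted p under 0.05, with a median of 0.15. Myc, a growth regulator, was at 0.35 ± 0.09, Ephb2, which positions crypt cells, at 0.30 ± 0.08 and Ascl2, a stem cell transcription factor, at 0.37 ± 0.11, each with every DSS library above water. Bambi, a decoy receptor of the TGF-beta family, was at -0.84 ± 0.24 with every DSS library below. Lef1 and Lgr5 stand on 2 of these lists each.

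**Figure D4:**
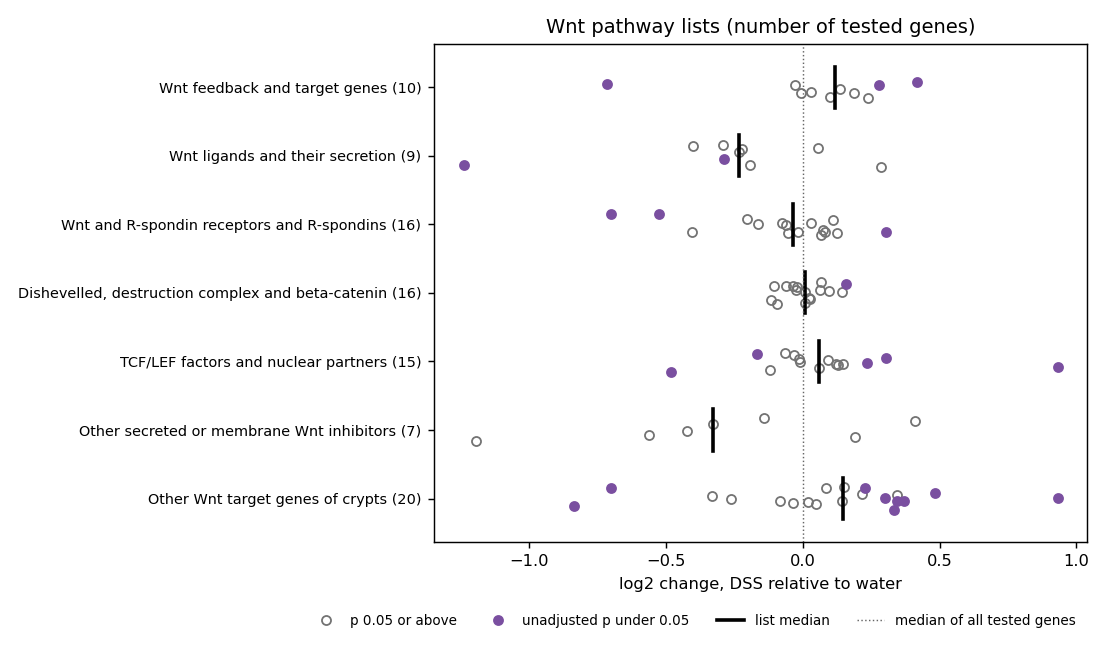
Log2 change in DSS relative to water of every tested gene on the 7 Wnt lists; filled points have an unadjusted p under 0.05, black bars are list medians and the dotted line is the median of all tested genes. None of the points passed adjustment over all genes, and list medians run from -0.33 in the other inhibitors to 0.15 in the other targets.

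Among 9159 named genes whose mean log2 CPM was 3 or more, the 5 whose centred log2 profiles over the 7 libraries lay nearest to that of Axin2 were Epn3, Sdsl, Npm3, Rpl32l and Sf3a2, at root mean square distances of 0.042 to 0.048 log2 units. Of the other 9 Wnt genes, 6 were in that pool, and the nearest were Tcf7 at rank 416 (distance 0.115), Sp5 at rank 1147 (0.138) and Znrf3 at rank 1317 (0.141). Wif1, outside the pool by its level, lay at 0.590. With 6 Wnt genes in a pool of 9159, closer profiles outside the group would be found in nearly any case. These ranks therefore do not show whether the group resembles Axin2.

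Coordinates follow the gene models of the count files on mm10, and each value sums a gene's exons. Axin2 (ENSMUSG00000000142.15) spans 108920349 to 108950783 of chromosome 11, plus strand. Sp5 (ENSMUSG00000075304.2) spans 70474923 to 70477729 of chromosome 2, and Wif1 (ENSMUSG00000020218.11) spans 121033960 to 121100650 of chromosome 10, both plus strand. Chromosome 11 also holds Rnf43, Znrf3, Notum and Tcf7, so 5 of the 10 genes lie on a chromosome with 7.72% of the tested genes. Their log2 changes ran from -0.0084 for Rnf43 to 0.28 for Axin2, and differences among them were not tested. Of Axin2's 5506 exon bases, 209 are shared with the antisense gene Gm11670, whose counts were at most 28 per library. The part of this overlap in the Axin2 level was not tested.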

How the data were processed

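Each deposited file gives 1 library's raw counts, which the authors obtained by running featureCounts (version 1.5.3 per the headers of the files): exons of GENCODE mouse release 15, primary alignments, a minimum overlap fraction of 0.8, no strand option. Per the submitters' processing notes, the build was mm10, and DESeq2, featureCounts 1.5.2 and STAR 2.5.3a were used. GENCODE release 21 gave symbols for 52403 of the 52550 identifiers. RPKM used the deposited exon lengths. edgeR 4.0.16 in R 4.3.3 compared 4 DSS with 3 water libraries: filterByExpr, TMM, the quasi-likelihood test without covariates, Benjamini-Hochberg over 17449 genes, threshold 0.05. Standard errors are the log2 change over the root of F. DESeq2 1.42.0 and limma 3.58.1 were alternatives. Replicates were numbered in accession order. All 21 pairs of libraries differed beyond sampling noise (lowest chi-square over its degrees of freedom 14.6). The edgeR step was tested on simulated data.

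The members and lists were chosen with earlier results of these data known. All 10 members were named, then up to 4 genes of smallest p per pathway list, and the 5 nearest profiles to Axin2. Profiles were log2 CPM with a prior count of 2, without predicted, clone and pseudogene symbols. Wnt3 was named as well, as a ligand that Paneth cells secrete. The alternatives used DESeq2 size factors (RLE), library totals only, TMM without granule genes, other tests and filters, age as a covariate, subsets by age and lane, and leaving out each library.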

Additional observations from a re-analysis of the deposited data

How the results depend on the processing

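Over 17 alternatives, Axin2, Znrf3, Sp5, Tnfrsf19 and Tcf7 kept estimates above 0 and Wif1 below 0, while those of Rnf43, Nkd1, Notum and Apcdd1 took both signs, Notum as far as -0.50 and Apcdd1 as far as -0.30, both in lane 6 only. TMM without granule genes gave Axin2 at 0.28, Sp5 at 0.42 and Wif1 at -0.72, as in the main fit, and called 0 of the 10. DESeq2 called 351 genes higher and 295 lower, among them 2 of the 10 higher and 1 lower. Library totals only gave 2107 higher and 28 lower genes and 3 of the 10 higher (Axin2, Znrf3 and Sp5), but moved the median of all genes to 0.23. Relative to that median Axin2 was at 0.28, Znrf3 at 0.19, Sp5 at 0.42, Rnf43 at -0.01 and Apcdd1 at -0.04, the last 2 being 0.22 and 0.19 before subtraction. No low-count filter gave 240 and 201 genes, and lane 6 only, where the spread of DSS 4 is taken from the water libraries, 3 and 6; none of the 10 was among them. The cause of these counts was not tested.

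Leaving out 1 library gave 0 to 168 genes higher and 0 to 135 lower, the most without DSS 1, then 9 and 0 without DSS 4, and 0 of the 10 in each case. The leave-one-out range was -0.071 to 0.062 for Rnf43, -0.10 to 0.15 for Nkd1, -0.25 to 0.32 for Notum and -0.25 to 0.074 for Apcdd1. Rnf43 was 0.0093 with limma-voom, 0.070 with age as a covariate, 0.021 in 10-week mice only and 0.047 in lane 6 only. Nkd1 was -0.014, -0.051 and -0.14 in the first 3 of these, Notum -0.084 with limma-voom, -0.19 in 10-week mice and -0.50 in lane 6, and Apcdd1 0.21 with age and 0.030 in 10-week mice. In 10-week mice only, the spread of water 3 was taken from the DSS libraries. No paired analysis was possible because the labels give no replicate numbers, and the titles share a single number between groups, 19083 in water 3, DSS 2 and DSS 3, whose meaning is not given.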

Other observations

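Ratios of counts within a library need no scaling between libraries. They were chosen after the values were seen, so they are given without a test. Axin2 over Rnf43 was 1.53, 1.41 and 1.35 in water 1 to 3. In DSS 1 to 4 it was 1.56, 1.86, 1.94 and 1.70, with DSS 1 close to water 1. The groups did not overlap, with means of 1.43 ± 0.094 (SD, n = 3) and 1.76 ± 0.169 (SD, n = 4). Axin2 over Wif1 was 17.2 to 31.2 in water and 39.7 to 67.3 in DSS. This ratio could not overlap, because every DSS library lay above water for Axin2 and below water for Wif1. It therefore adds nothing to those separations. Znrf3 over Rnf43, the ubiquitin ligase pair, was 0.257 to 0.335 in water and 0.317 to 0.370 in DSS, and Sp5 over Axin2 was 0.0507 to 0.0554 and 0.0499 to 0.0662, both with overlap.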
